A study of Homo sapiens with 6 samples.

Results

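Genes that promote or restrain blood vessel growth were followed by PCR array in the human pancreatic carcinoma line Panc-1. The members were taken by name and not by a cut on their values, though earlier results of these data were known. They are the growth factor VEGFA, the angiopoietins ANGPT1 and ANGPT2, the angiopoietin receptor TEK, and the inhibitors THBS1 and COL18A1. These are 6 of the 89 genes in the deposited table. In all, 6 plates were run, 2 for each of 3 conditions. Tet-on driver cells carried the tet-on plasmid and were grown with 1 μg/ml doxycycline for 4 weeks (called driver cells below). Tet-on CaSm cells carried in addition an inducible full-length human CaSm construct, and were grown for 4 weeks either with 1 μg/ml doxycycline (induced cells) or without it (non-induced cells). CaSm, encoded by LSM1, is an Sm-like protein with a part in messenger RNA decay, and its own level was not analysed here. Per the study's methods, the tet-on CaSm line is a stable pool that was derived from part of the driver pool by a further transfection and puromycin selection, so driver and tet-on CaSm cells differ in this history as well as in the construct. No driver plates without doxycycline were analysed here. Doxycycline itself thus cannot be told apart from CaSm between induced and non-induced cells, nor from the pool between non-induced and driver cells. Plates are numbered by a mark on their labels, whose meaning is not stated there: 2 and 3 in driver cells, 1 and 2 in non-induced and in induced cells. No source used here ties the plates of a condition to separate cultures, so the p-values measure only the spread between plates, which may be technical.

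Solid tumors need a blood supply, and tumor cells can shift the balance between factors that promote and factors that restrain vessel growth. VEGFA is secreted and drives endothelial cells to divide and migrate through its receptors. The angiopoietins act on TEK, also called TIE2, a receptor tyrosine kinase found mainly on endothelial cells: ANGPT1 activates it and stabilizes vessels, whereas ANGPT2 often opposes ANGPT1 and loosens them. THBS1 encodes thrombospondin-1, a matrix glycoprotein that inhibits endothelial growth and can release active TGF-beta. COL18A1 encodes the alpha chain of collagen XVIII, whose C-terminal fragment endostatin inhibits vessel growth. The array measured RNA in the cancer cells alone, so it shows what these cells can make and not how vessels respond.

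Each value is a threshold cycle (Ct), the PCR cycle at which the product crossed the detection threshold, so an earlier Ct means more template and 1 cycle is about 1 log2 unit. Subtracting the plate mean of B2M, HPRT1 and GAPDH gives ΔCt. That plate mean lay between 19.73 and 20.34 on the 6 plates. Values later than 35 were set to 35, the detection limit used here, and a gene whose mean Ct was 32 or later was called near the limit. Of the 89 genes, 79 were under 35 on all 6 plates. In each condition most of the 76 genes detected on all plates, other than the normalizing genes, were higher on the lower-numbered plate: 72.4% in driver, 68.4% in non-induced and 78.9% in induced cells. The genes of a plate thus share part of their error. Driver plates are numbered 2 and 3, and tet-on CaSm plates 1 and 2. In a fit without the number, a trend with it cannot be told apart from a difference against driver cells. Of 16 defining markers of epithelial, endothelial, fibroblast and blood cells, TEK was the 1 measured, so the array does not check the identity of the line.

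VEGFA, THBS1 and COL18A1 were well detected, ANGPT2 was near the limit, and ANGPT1 and TEK were at it. The Ct of VEGFA lay between 22.54 and 25.17, that of THBS1 between 24.75 and 26.8, and that of COL18A1 between 20.86 and 21.71. ANGPT2 crossed late on every plate, between 32.95 and 34.32 (mean 33.6). ANGPT1 was under 35 on 2 of the 6 plates and TEK on 2 of the 6. Assays of different genes can differ in efficiency, so levels are compared between conditions and not between genes.

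**Figure D1:**
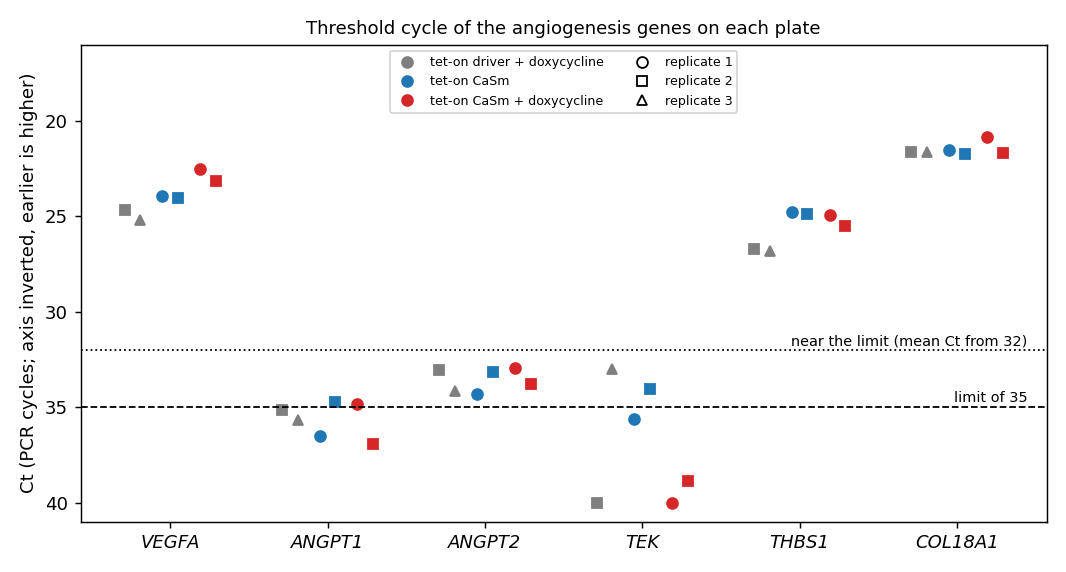
The Ct of each of the 6 genes on each plate, in PCR cycles on an inverted axis, with color for the condition and the marker for the replicate. VEGFA, THBS1 and COL18A1 lie at 26.8 or earlier, ANGPT2 between 32.95 and 34.32, and most plates of ANGPT1 and TEK beyond the limit of 35.

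VEGFA rose stepwise over the 3 conditions. Its ΔCt was 4.60 and 4.94 in driver cells, 3.60 and 3.87 in non-induced cells and 2.81 and 2.99 in induced cells, with the lower-numbered plate given first here and below. No plate overlapped with a plate of another condition, and the level was lowest in driver cells, higher in non-induced cells and highest in induced cells. Between 50.6% and 61.4% of all genes tested also did not overlap, depending on the pair of conditions. The share without overlap in all 3 pairs at once is not given here. Relative to the driver mean, the non-induced plates stood at 2.25 and 1.86 and the induced plates at 3.90 and 3.44. Each of the 3 differences passed the test. Induced cells were above driver cells by 1.87 on the log2 scale (standard error 0.25, 95% interval 1.32 to 2.42, adjusted p = 0.00066 from limma). Non-induced cells were above driver cells by 1.03 (standard error 0.25, interval 0.48 to 1.58, adjusted p = 0.0284), and induced cells above non-induced cells by 0.84 (standard error 0.25, interval 0.29 to 1.39, adjusted p = 0.0392).

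These 3 calls for VEGFA were not equally firm. A fit with a plate left out has fewer residual degrees of freedom, so a call lost there cannot be laid to that plate alone. Between induced and driver cells the log2 difference was 1.61 when read from the replicate 2 plates alone, which share that mark. It was 1.59 with the replicate number as a block (adjusted p = 0.00379 from limma), beside 1.87 in the main fit. Leaving out any of the 6 plates gave 1.70 to 2.04, with no adjusted p above 0.00411. Between induced and non-induced cells it was 0.79 on the plates of replicate 1 and 0.89 on those of replicate 2. That call was lost without any of the 4 plates compared, with an adjusted p of 0.109 without non-induced replicate 1, 0.17 without non-induced replicate 2, 0.111 without induced replicate 1 and 0.0681 without induced replicate 2. Between non-induced and driver cells the difference was 0.72 on the plates of replicate 2. With the replicate number as a block it was 0.75 with an adjusted p of 0.526. That call was lost without driver replicate 3 (adjusted p = 0.401), non-induced replicate 1 (0.317) or non-induced replicate 2 (0.084).

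THBS1, the vessel growth inhibitor, followed another order. Its ΔCt was 6.62 and 6.57 in driver cells, 4.41 and 4.67 in non-induced cells and 5.19 and 5.32 in induced cells, again with no overlap between conditions. The shares of all genes given for VEGFA stand beside this as well. The level was thus lowest in driver cells and highest in non-induced cells, with induced cells in between. As a multiple of the driver mean the non-induced plates reached 4.55 and 3.78, and the induced plates 2.65 and 2.42. Non-induced cells were above driver cells by 2.05 on the log2 scale (standard error 0.24, 95% interval 1.53 to 2.57, adjusted p = 0.000274 from limma). For induced against driver cells the difference was 1.34 (standard error 0.24, interval 0.82 to 1.86, adjusted p = 0.00212).

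Induced cells had less THBS1 than non-induced cells of the same pool, with a log2 difference of −0.71 (standard error 0.23, 95% interval −1.23 to −0.19, adjusted p = 0.0492 from limma). The difference was −0.78 within replicate 1 and −0.64 within replicate 2. This adjusted p is close to the threshold of 0.05 and passed it in 2 of 9 alternatives, reaching 0.486 with GAPDH alone. The call was lost with any of the 6 plates left out. Leaving out either driver plate gave the same fit, that of the compared plates alone. The adjusted p was 0.0996 without driver replicate 2, 0.0996 without driver replicate 3, 0.255 without non-induced replicate 1, 0.105 without non-induced replicate 2, 0.087 without induced replicate 1 and 0.177 without induced replicate 2. The 2 calls against driver cells were kept in each of these, with an adjusted p of at most 0.0164. Within replicate 2 those differences were 1.94 for non-induced and 1.30 for induced cells. With the replicate number as a block they were 1.98 and 1.27.

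**Figure D2:**
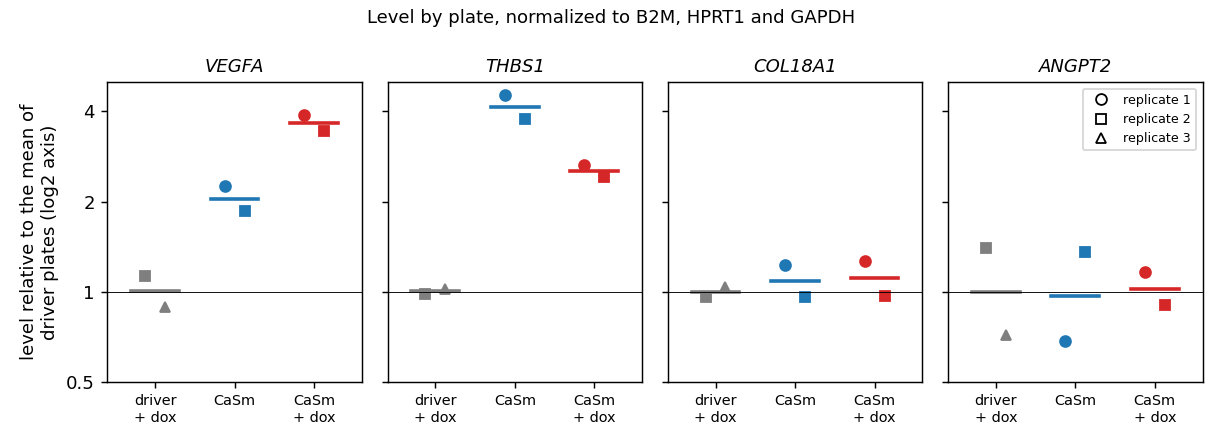
The level of VEGFA, THBS1, COL18A1 and ANGPT2 on each plate relative to the mean of the driver plates, after normalization to B2M, HPRT1 and GAPDH (log2 axis). Points are plates, with the marker for the replicate, and bars are means on the log scale. VEGFA rises from driver to non-induced to induced cells, THBS1 is highest in non-induced cells (4.55 and 3.78), and the plates of COL18A1 and ANGPT2 overlap between conditions.

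The stretch before the start of THBS1 is shown because THBS1 had the largest difference among these genes between the 2 control conditions. RefSeq-based promoter windows on GRCh38.p14 were matched for 3 of the 6 genes, THBS1, COL18A1 and TEK. The window below holds the 250 bases before the THBS1 start on the plus strand, chr15:39580829-39581078, written 5′ to 3′, with matches to the motifs searched in capitals.
THBS1: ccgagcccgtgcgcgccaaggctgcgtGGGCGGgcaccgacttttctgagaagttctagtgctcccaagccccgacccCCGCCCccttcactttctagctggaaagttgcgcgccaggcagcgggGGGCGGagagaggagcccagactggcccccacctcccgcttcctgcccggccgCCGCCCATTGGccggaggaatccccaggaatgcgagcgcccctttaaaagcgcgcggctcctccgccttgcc
The motifs, searched on both strands, were the GC box (GGGCGG), the CCAAT box (CCAAT) and the TATA box (TATAAA). The THBS1 window holds 4 GC boxes, whose first bases lie 223, 172, 125 and 72 bases before the start, and 1 CCAAT box on the minus strand, 66 bases before it and directly after the last GC box. It holds no exact TATAAA, and variants of that motif were not searched. Of 35116 such windows, 42.6% hold at least 1 GC box, 32% at least 1 CCAAT box and 10.7% at least 1 TATA box. A window with a GC box or a CCAAT box is thus common. The share of windows with 4 or more GC boxes was not counted. The first of the 2 windows of COL18A1 holds 9 GC boxes and the second holds 1. The array measured RNA levels and not promoter activity, and these matches are a description of the letters in the windows.

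COL18A1, the source of endostatin, did not pass the test in any comparison. Its ΔCt was 1.54 and 1.41 in driver cells, 1.18 and 1.53 in non-induced cells and 1.13 and 1.52 in induced cells, and all 3 conditions overlapped. The log2 difference was 0.15 between induced and driver cells (95% interval −0.41 to 0.71, adjusted p = 0.695 from limma). It was 0.12 between non-induced and driver cells (−0.44 to 0.68) and 0.03 between induced and non-induced cells (−0.53 to 0.60). Its sign turned with B2M alone (−0.31 and −0.37) in the comparisons of induced with driver and with non-induced cells. With the median of all detected genes as the normalizer it turned for induced (−0.09) and for non-induced cells (−0.43) against driver cells. Over these comparisons the intervals reach from 0.693-fold to 1.64-fold, so with 2 plates a condition a change of COL18A1 within its interval is not excluded.

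ANGPT2, the TEK ligand that often opposes ANGPT1, had a ΔCt of 12.95 and 13.92 in driver cells, 13.98 and 12.99 in non-induced cells and 13.22 and 13.59 in induced cells. The 2 plates of driver cells and the 2 of non-induced cells each lay about 1 cycle apart, and the induced plates fell inside that range. The log2 differences were 0.03 for induced against driver, −0.05 for non-induced against driver and 0.08 for induced against non-induced cells, with 95% intervals of −0.81 to 0.87, −0.89 to 0.79 and −0.78 to 0.94. The sign was not stable, being −0.44 and −0.32 with B2M alone for induced cells against driver and non-induced cells, and −0.21 with the median of all detected genes against driver cells. At this late Ct a change of ANGPT2 within the intervals above is not excluded.

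ANGPT1, the activating TEK ligand, had a Ct of 35.13 and 35.67 in driver cells, 36.51 and 34.72 in non-induced cells and 34.85 and 36.92 in induced cells. Plates under and over 35 occurred within both tet-on CaSm conditions. TEK had a Ct of 40 and 33 in driver cells, 35.6 and 34.06 in non-induced cells and 40 and 38.86 in induced cells. It was thus under the limit on 1 driver plate and 1 non-induced plate and beyond it on both induced plates, and the 2 driver plates differed by 7 cycles. No fold change is given for ANGPT1 and TEK, because values set to 35 carry no order and their ΔCt then moves with the normalizing genes. Neither passed the test, with adjusted p-values between 0.278 and 0.71 for ANGPT1 and between 0.119 and 0.737 for TEK over the 4 comparisons. Between induced and driver cells TEK passed with B2M alone, with GAPDH alone and without driver replicate 2, where driver cells were left with the plate at a Ct of 33.

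Read together with all genes on the array, 2 of the 6 genes passed in each comparison of a pair of conditions. Between induced and driver cells these were VEGFA and THBS1, both higher, where 23.5% of the 85 genes tested passed, 9 higher (10.6%) and 11 lower. Plates of these conditions did not overlap for either gene, nor for 54.1% of all genes. Between induced and non-induced cells VEGFA was higher and THBS1 lower, where 24.1% of the 83 genes tested passed, 5 higher (6.02%) and 15 lower (18.1%). Neither gene overlapped, and 61.4% of all genes did not. Overlap is not described for ANGPT1 and TEK, whose values were set to 35 on 4 plates each. The shares over all genes do count these 2 and other genes with values set to 35. The 4 members under 35 on all plates had a median log2 difference of 0.06 there, beside −0.21 for the 76 genes tested that were under it on all plates. Between non-induced and driver cells VEGFA and THBS1 were 2 of the 6 genes of 85 that passed (7.06%), and 2 of the 3 that were higher (3.53%). Plates did not overlap for 50.6% of all genes there. The median in that comparison was 0.58 for the same 4 genes and 0.24 for the 76. With the median of all detected genes as the normalizer the difference between non-induced and driver cells was 0.49 for VEGFA (adjusted p = 0.218) and 1.51 for THBS1 (adjusted p = 0.0016). These comparisons share plates, so a gene's 3 differences are not independent of each other.

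**Figure D3:**
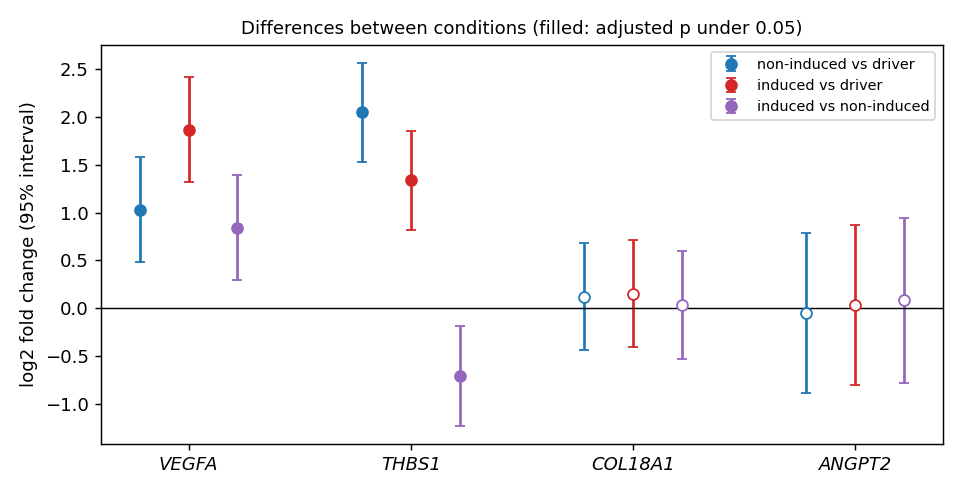
Log2 differences between conditions for the 4 genes under the limit on all plates, from limma over all 6 plates, with 95% intervals. Filled points have an adjusted p under 0.05: VEGFA and THBS1 in all 3 comparisons, with THBS1 below 0 (−0.71) for induced against non-induced cells, and neither COL18A1 nor ANGPT2 in any.

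Against both control conditions together, as the study also compared induced cells, VEGFA was higher by 1.36 on the log2 scale or 2.56-fold (standard error 0.22, adjusted p = 0.00135 from limma). Both induced plates lay above all 4 control plates. In this comparison plates did not overlap for 36.5% of all genes. THBS1 differed by 0.32 (95% interval −0.14 to 0.77, adjusted p = 0.275), since the control conditions lay on either side of the induced plates, and this turned to −0.12 with B2M alone. Of the 6 genes, VEGFA was the 1 that passed, where 22.4% of 85 genes did and 10.6% were higher.

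The normalizing genes moved as well, which bears on the size of the values above. The mean Ct of B2M was 20.73 in driver, 20.76 in non-induced and 20.06 in induced cells, and that of GAPDH was 17.99, 18.14 and 18.18. With B2M alone the difference of VEGFA between induced and driver cells was 1.41, and with GAPDH alone 2.26. For THBS1 the same settings gave 0.87 and 1.73. Both genes passed the test under each normalizer in this comparison, B2M, HPRT1 or GAPDH alone and the median of all detected genes. Between induced and non-induced cells VEGFA ranged from 0.44 to 1.17 and THBS1 from −1.12 to −0.38 over these settings. The call of VEGFA was lost there with B2M alone (adjusted p = 0.103 from limma) and with HPRT1 alone (0.0963). That of THBS1 was lost with HPRT1 alone (adjusted p = 0.164 from limma), GAPDH alone (0.486) and the median of all detected genes (0.214).

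The level of VEGFA relative to THBS1 on the same plate needs no normalizing gene. It combines the differences of these genes given above, so it adds no independent evidence about them. The share of other gene pairs without overlap is not given here. The Ct of THBS1 minus the Ct of VEGFA was 2.02 and 1.63 in driver cells, 0.81 and 0.80 in non-induced cells and 2.38 and 2.33 in induced cells. The means were 1.82 ± 0.28 (SD, n = 2 plates) in driver, 0.80 ± 0.01 in non-induced and 2.36 ± 0.04 in induced cells. The 3 conditions did not overlap, with the growth factor lowest against the inhibitor in non-induced cells and highest in induced cells. Between induced and non-induced cells the ratio differed by 1.55 on the log2 scale or 2.93-fold, with a range of 1.52 to 1.58 when any of the plates compared was left out. The ratio was 2.03-fold lower in non-induced than in driver cells (−1.02 on the log2 scale, −1.21 to −0.82 with a plate left out). Induced cells lay 0.53 above driver cells or 1.44-fold, with a range of 0.34 to 0.73, and 0.31 on the replicate 2 plates alone. A two-sided exact permutation test of 2 plates against 2 gave p = 0.333 for each of these, the smallest it can give. Against all 4 control plates the difference was 1.04, with an exact permutation p of 0.133, where 0.0667 is the smallest possible.

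**Figure D4:**
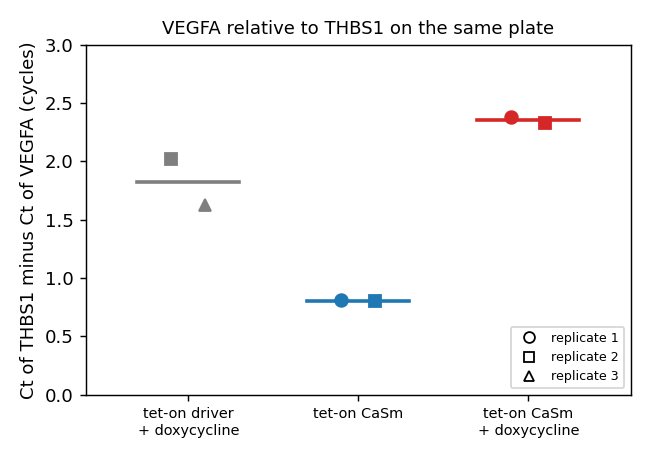
The Ct of THBS1 minus the Ct of VEGFA on each plate, in cycles, where a higher value means more VEGFA relative to THBS1 and the zero point depends on the 2 assays. Points are plates and bars are means of 2 plates: non-induced plates sit at 0.81 and 0.80, driver plates at 2.02 and 1.63, and induced plates at 2.38 and 2.33.

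The profile of each detected gene over the 6 plates was set beside those of the other genes under 35 on all plates, as the root mean square difference of −ΔCt after each gene was centred on its own mean. The genes closest to VEGFA were TNFRSF10B, a death receptor for TRAIL (0.21 log2 units), PLAUR, the urokinase receptor (0.21), and the transcription factor MYC (0.23), against a median of 0.82 over all genes. THBS1 had no neighbor as close, the nearest being the integrin subunit ITGA3 (0.47), PLAUR (0.48) and the integrin subunit ITGB1 (0.56), against a median of 0.81. COL18A1 varied little, and IL8 (0.14) and PLAU (0.15) were among its 3 closest genes, with a median of 0.32. ANGPT2 lay nearest to ITGA4 (0.27), MET (0.30) and CASP8 (0.34), with a median of 0.52. These distances describe 6 plates that share their normalizing genes, and genes with small changes lie close to each other by this measure.

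A list of 22 other genes with a part in vessel growth, among them the ligands IL8, PDGFA and PDGFB, the receptor FGFR2, integrin subunits, TIMPs and cytokines, held 18 genes measured on the array. Of these, 5 reached the limit of 35 on at least 1 plate. Between induced and driver cells 1 of 18 was higher and 1 lower, and 16 did not pass, so that 11.1% passed, beside 23.5% of all genes tested. ITGB3, the beta subunit of an integrin on growing vessels, rose by 1.14 on the log2 scale (standard error 0.29, adjusted p = 0.0199 from limma), and TNF, an inflammatory cytokine detected late, fell by 0.97 (adjusted p = 0.0388). Between induced and non-induced cells TNF was the 1 of 17 tested that passed, at 0.94 (adjusted p = 0.0452), which is 5.88%, beside 24.1% of all genes. Between non-induced and driver cells TNF fell by 1.91 (adjusted p = 0.0022) and FGFR2, a receptor for fibroblast growth factors, fell by 0.87 (adjusted p = 0.0451), and the other 16 did not pass, so that 11.1% passed, beside 7.06% of all genes. Non-induced replicate 1 was at the limit for TNF, with a Ct of 35.46, so its value there is a bound.

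Against both controls together ITGB3 was higher by 1.01 (adjusted p = 0.0126) and TGFBR1, a TGF-beta receptor, by 1.91 (adjusted p = 0.033). These 2 of 18 are 11.1%, beside 22.4% of all genes. The value of TGFBR1 rested on induced replicate 1, with a ΔCt of 6.46 against 9.39 on induced replicate 2 and 9.73 to 9.99 on the 4 control plates. IL8, a chemokine that attracts endothelial cells and neutrophils, had a ΔCt between 7.75 and 8.05 on all 6 plates, and that of PDGFB, which recruits the mural cells of vessels, lay between 2.53 and 2.97. The 13 genes of the list under 35 on all plates had a median log2 difference of 0.05, −0.06 and 0.18 for induced against driver, induced against non-induced and non-induced against driver cells, beside 0.01, −0.21 and 0.24 for the 76 genes. Of the 18 genes, TNF was the 1 that passed in all 3 comparisons, highest in driver cells and lowest in non-induced cells. By the rule used for the members TNF was at the limit. Its differences from non-induced cells rest in part on the plate set to 35, and its calls under other settings are not given here.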

How the data were processed

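The authors isolated RNA, made cDNA and used SYBR Green on the SABiosciences Cancer PathwayFinder plates (Roche Lightcycler). The deposited Ct table covers 89 genes and 6 plates and is not normalized. The threshold setting is not given in the sources used here. A deposited table of fold changes against driver cells, from the authors' ΔΔCt analysis, was not used.

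Ct values above 35 were set to 35, a limit chosen here, and the mean of B2M, HPRT1 and GAPDH on the plate was subtracted, as in the study's methods. A model with 3 condition means was fitted to −ΔCt of the 6 plates in limma 3.58.1 (R 4.3.3), with 3 residual degrees of freedom. P-values named as adjusted are from this fit, by Benjamini-Hochberg over all genes tested, with a threshold of 0.05. The normalizing genes, and genes at 35 on every plate compared, were left out. The fit was tested on simulated data. These had independent noise for each gene and larger changes than the weaker calls here, so that test does not cover error shared by a plate.

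The genes described, the list of other genes and the tests were chosen with earlier results of these data known. The genes named are the 6 members, the normalizing genes, listed genes with an adjusted p under 0.05, and the 3 closest profiles per member, of which 1 is not reported here. IL8 and PDGFB were named after their values were seen. Of the 89 gene names, 88 matched a RefSeq symbol and 1 (IL8) a synonym. Deviations of same-numbered induced and non-induced plates correlated at −0.17 over 76 genes, and the number was not a block in the main fit. A correlation over genes does not show a shift that all genes of a plate share, so it does not settle that choice. Alternatives were B2M, HPRT1 or GAPDH alone, the median of all detected genes, a Ct limit of 40, genes with a mean Ct under 30, the replicate block, the plates compared alone, the methods' own test, the plates of replicate 2, and each plate left out. The crossed pairing was chosen after seeing the data. Figures were drawn with matplotlib 3.10.9 (Python 3.11.15). The number of plates limits the precision.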

Additional observations from a re-analysis of the deposited data

How the results depend on the processing

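The number of the 6 genes that passed was 2 in each comparison of a pair of conditions and 1 for induced cells against both controls. Between induced and driver cells it stayed at 2 or 3 except with the methods' t-test, where it was 0. That test gave an unadjusted p under 0.05 for VEGFA and THBS1 in each pair of conditions and an adjusted one for 0 of the 6 genes, with 2 of 85 genes passing between induced and driver cells and 0 in both other pairs (21, 15 and 9 before adjustment). Between induced and non-induced cells the number was 0 with HPRT1 alone, a Ct limit of 40, the methods' t-test and the crossed pairing, 1 with GAPDH alone, the median of all detected genes and the compared plates alone, and 0 to 1 with a plate left out. It was 2 but not the same pair with B2M alone, ANGPT1 and THBS1, and with the replicate block, VEGFA and TEK. Between non-induced and driver cells the number was 1 with HPRT1 alone, the median of all detected genes, a Ct limit of 40 and the replicate block, each time THBS1, 0 with the methods' t-test, and 1 to 3 with a plate left out. Against both controls it was 3 with B2M alone (VEGFA, ANGPT1 and TEK), 0 with the methods' t-test and 1 to 2 with a plate left out.

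On the plates of replicate 2 the VEGFA to THBS1 ratio differed by 0.31 between induced and driver cells and by −1.22 between non-induced and driver cells. Signs that turned were those of small differences. ANGPT2 gave −0.44 with B2M alone, −0.21 with the median of all genes and −0.30 with the replicate block against driver cells, −0.32 with B2M alone against non-induced cells, 0.00 with GAPDH alone between the controls, and −0.38 with B2M alone and −0.11 with the replicate block against both controls. COL18A1 gave −0.31 and −0.09 with B2M alone and the median against driver cells, −0.37 with B2M alone against non-induced cells, −0.43 with the median and −0.01 with the replicate block between the controls, and −0.34 with B2M alone against both. THBS1 gave −0.12 with B2M alone against both controls. With a plate left out ANGPT2 ranged from −0.46 to 0.52 for induced against driver, −0.41 to 0.57 for induced against non-induced, −0.54 to 0.44 for non-induced against driver and −0.19 to 0.30 against both. COL18A1 ranged from −0.04 to 0.35, −0.16 to 0.23, −0.06 to 0.30 and −0.10 to 0.29 in the same order. The cause was not tested for any of these. Among all genes tested between induced and driver cells, 9 were higher and 11 lower, but 7 and 37 with B2M alone and 24 and 5 with GAPDH alone. No fold is reported for ANGPT1 and TEK. The compared plates alone were not run against both controls, where they are all 6.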
